A study of Mus musculus with 2 samples.

Results

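The 10 genes described here make or coat the triglyceride droplets of the cell: the droplet coat genes Plin2 and Plin3, the acyl-CoA synthetase genes Acsl1 and Acsl4, the acyltransferase genes Gpam and Agpat3, the phosphatidate phosphatase genes Lpin1 and Lpin2, and the diacylglycerol acyltransferase genes Dgat1 and Dgat2. They were taken by their symbols, and all 10 were present among the 31253 features of both libraries. The cells came from mouse brain tissue of an infarct, taken on day 3 of a stroke model, transient middle cerebral artery occlusion (tMCAO), in which a brain artery is blocked and then reopened. Single cells were captured with BD Rhapsody in 1 library from Hilpda cKO brains (cKO) and 1 library from controls labelled flox, which the study's design text calls WT. Hilpda encodes a small droplet protein that inhibits Atgl, the triglyceride lipase encoded by Pnpla2. The strain and age of the mice, the number of animals behind each library, the driver of the recombinase and the deleted part of Hilpda were not stated in the labels used here.

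After filtering, 6984 cKO and 8065 flox cells were left, with medians of 8741 and 6997 UMIs per cell. The libraries shared 56 cell barcodes, 0.759% of those of cKO and 0.652% of those of flox. UMIs were summed over the cells of each marker-named class and given as counts per 1000000 UMIs of that class (CPM). Each class was named on at least 3 of its markers. Of 16 classes, 8 had at least 100 cells in each library and were compared between the libraries, and 11 had at least 50 and were used for the order of levels. The largest were macrophage-like cells (3185 cKO and 3732 flox) and microglia-like cells (1493 and 2224). Since each genotype had 1 library, no test was possible, and genotype, animal and library preparation cannot be told apart. All intervals are 95% and cover counting error only. A difference was called when a gene had at least 50 UMIs over both libraries, differed at least 2-fold and had an interval of the ratio that excluded equal levels. Hilpda itself was detected at 266 CPM in cKO and 471 CPM in flox macrophage-like cells, and at 222 CPM in cKO and 103 CPM in flox microglia-like cells. Its UMIs do not check the genotype, since the part of the gene that was deleted is not known here.

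As background, triglyceride is built on glycerol-3-phosphate. Acyl-CoA synthetases activate fatty acids, Gpam adds the first acyl chain, enzymes of the Agpat family add the next, lipins remove the phosphate, and Dgat1 or Dgat2 adds the last chain. The product is stored in droplets in the cytosol, where Plin2 forms the coat in most cell types and Plin3 moves from the cytosol onto young droplets. Phagocytes that take up myelin and dead cells are known for such droplets.

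The promoters of 4 members that differed in their leading cell types, chosen once the levels were known, are shown here, taken from RefSeq for GRCm38.p6 and given from 5′ to 3′ on the strand of the gene, with 250 bases before the start of the transcript and 50 after it. The sequence table matched 8 of the 10 members, with 12 windows. Plin2 and Lpin2 were highest in myeloid classes, while Agpat3 and Gpam were highest in astrocyte-like cells. Capitals mark ACGTG, the core of the hypoxia response element, TGANTCA, the AP-1 site, and GAGGAA, the core of the PU.1 site, on either strand; the palindromic E-box CACGTG holds ACGTG on both strands.
Plin2, chr4:86670010-86670309, minus strand: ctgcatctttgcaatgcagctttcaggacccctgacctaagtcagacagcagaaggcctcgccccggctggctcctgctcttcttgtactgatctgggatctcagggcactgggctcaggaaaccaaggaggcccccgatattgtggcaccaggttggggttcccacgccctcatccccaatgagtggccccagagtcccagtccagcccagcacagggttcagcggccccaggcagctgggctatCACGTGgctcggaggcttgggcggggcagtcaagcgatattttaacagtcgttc
Lpin2, first listed start, chr17:71183282-71183581, plus strand: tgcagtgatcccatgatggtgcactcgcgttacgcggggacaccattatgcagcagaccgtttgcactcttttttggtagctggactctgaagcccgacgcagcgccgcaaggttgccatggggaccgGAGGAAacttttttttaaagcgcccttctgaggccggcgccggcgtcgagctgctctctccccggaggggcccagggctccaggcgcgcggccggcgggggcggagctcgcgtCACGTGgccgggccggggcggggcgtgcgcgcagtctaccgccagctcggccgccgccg
Agpat3, chr10:78351651-78351950, minus strand: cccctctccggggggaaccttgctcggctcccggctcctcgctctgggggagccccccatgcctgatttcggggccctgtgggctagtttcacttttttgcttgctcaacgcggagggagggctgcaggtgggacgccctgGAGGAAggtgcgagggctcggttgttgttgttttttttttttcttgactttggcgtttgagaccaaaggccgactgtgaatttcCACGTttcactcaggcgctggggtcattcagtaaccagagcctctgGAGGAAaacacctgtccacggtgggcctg
Gpam, first listed start, chr19:55127189-55127488, minus strand: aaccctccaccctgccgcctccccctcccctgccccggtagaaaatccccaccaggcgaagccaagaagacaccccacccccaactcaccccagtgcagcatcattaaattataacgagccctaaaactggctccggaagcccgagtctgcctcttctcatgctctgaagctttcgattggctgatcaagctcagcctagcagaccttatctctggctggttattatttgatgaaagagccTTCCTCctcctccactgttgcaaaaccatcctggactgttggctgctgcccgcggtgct
Of the windows shown, those of Plin2 and Lpin2 each hold CACGTG close to the start, at −4 in Plin2 and at −9 in Lpin2. The first of the 50 bases after the start is counted as 0. The windows of the other listed Lpin2 starts, not shown, hold neither CACGTG nor GAGGAA. Over 32851 promoter windows of the same length, 7.15% hold CACGTG, 19.6% hold ACGTG and 28.3% hold GAGGAA. The PU.1 core is present in the windows of Lpin2, Agpat3 and Gpam and not in that of Plin2. The AP-1 site, held by 7.81% of all windows, is in none of these windows. A motif of many nuclear receptors, AGGTCA, is held by 16.3% of all windows and left in lower case. Among the windows shown it is in that of Plin2 alone, at −218. The second listed Gpam start, not shown, has it at −196. These matches describe letters in the windows, not bound sites.

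Plin2 (ENSMUSG00000028494, chr4:86648386-86670060 on GRCm38, minus strand) was highest in phagocytes. It had 845 CPM (835 to 855, 26977 UMIs) in cKO and 907 CPM (897 to 918, 27969 UMIs) in flox macrophage-like cells. Microglia-like cells followed with 772 CPM in cKO and 578 CPM in flox, and border-associated macrophage-like cells with 504 CPM in cKO and 419 CPM in flox. These 3 classes kept that order in both libraries with intervals that did not overlap. Neutrophil-like cells were next with 307 CPM (257 to 365) in cKO and 209 CPM (156 to 275) in flox, an interval that overlapped the next class in flox. Intermediate levels were found in neuroblast-like cells (139 CPM in cKO, 113 CPM in flox), dendritic-like cells (128 and 127 CPM) and mural-like cells, the pericyte and smooth muscle class (120 and 159 CPM), with overlapping intervals. The lowest class was the oligodendrocyte-like one, with 38.6 CPM in cKO and 41.3 CPM in flox, 21.9-fold below the highest in both libraries, though choroid plexus epithelial-like cells (41.8 CPM in cKO, 54.2 CPM in flox) had an overlapping interval. Spearman's rho between the libraries over the 11 classes was 0.94, a description over classes that share a library and its depth.

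**Figure D1:**
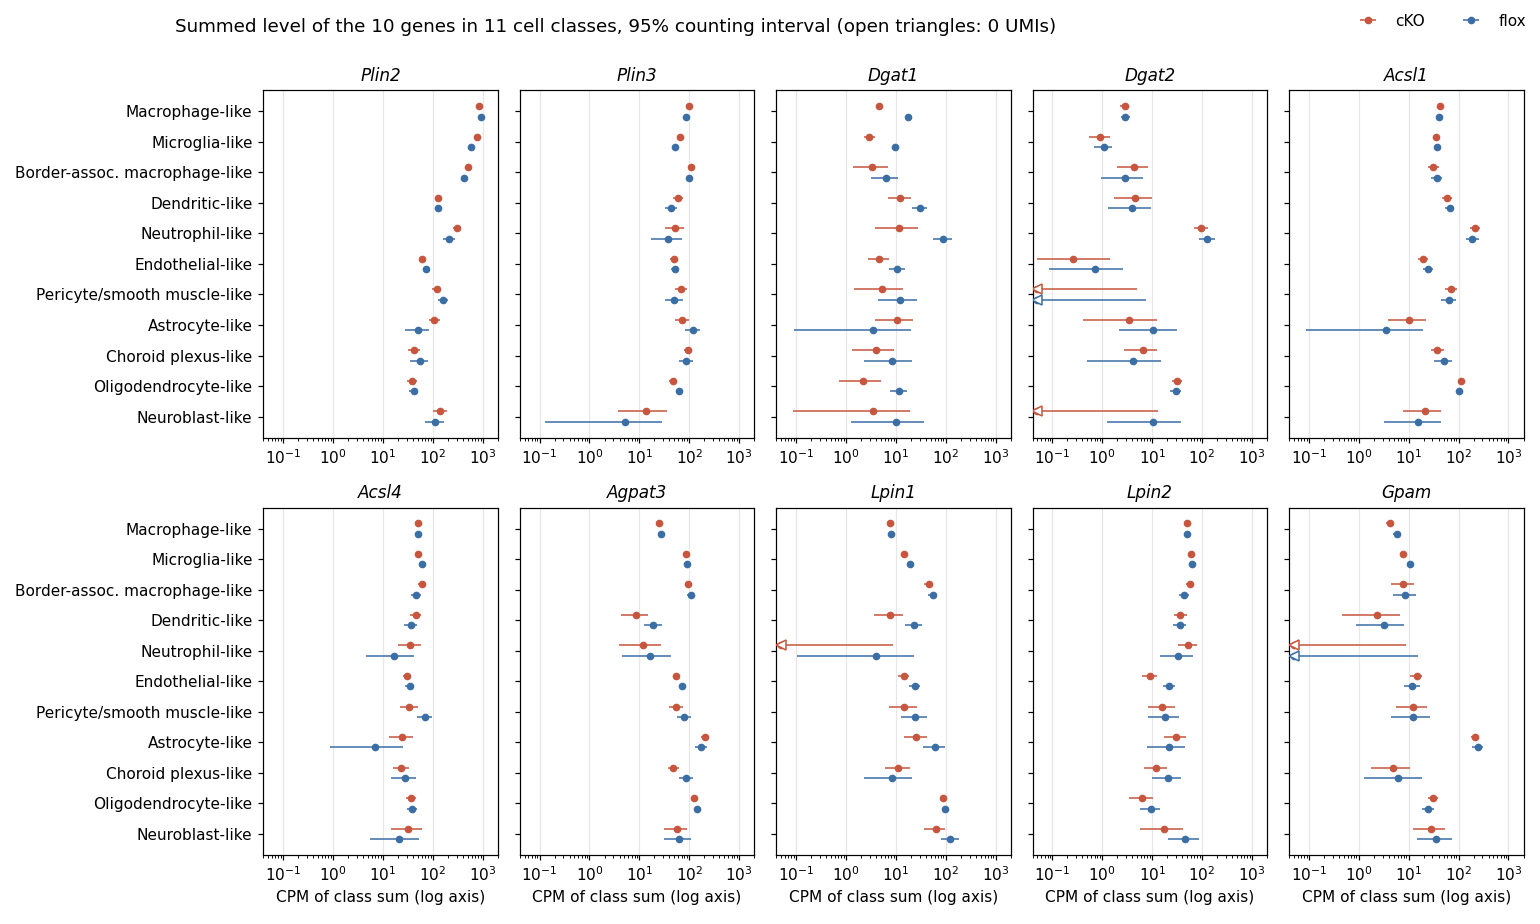
Level of each of the 10 genes (CPM, log axis) in 11 marker-named classes, with the cKO library drawn above the flox library in each class. Bars are 95% Poisson intervals, and open triangles mark 0 UMIs. Plin2 is highest in macrophage-like cells (845 CPM in cKO, 907 CPM in flox), Gpam in astrocyte-like cells (215 and 244 CPM) and Acsl1 in neutrophil-like cells (215 and 189 CPM).

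Part of the low Plin2 levels outside myeloid cells was within what free RNA could give. The summed level of Lyz2, Cd14, Fcer1g, Tyrobp, Ctss and C1qb in a class, as a share of their level in macrophage-like cells, was applied to the Plin2 level of macrophage-like cells. By that measure free myeloid RNA could supply up to 72.5% of the Plin2 of oligodendrocyte-like cells in cKO and 91.0% in flox, and 52.7% of that of endothelial-like cells in cKO and 48.1% in flox. In astrocyte-like cells the same share was 60.7% in cKO and 103% in flox, and in choroid plexus epithelial-like cells 67.4% in cKO and 84.4% in flox. Neuroblast-like cells gave 47.6% in cKO and 48.5% in flox, and mural-like cells 57.8% in cKO and 34.9% in flox. The Plin2 levels of these 6 classes, 60.1 CPM in cKO and 74.3 CPM in flox for endothelial-like cells among them, are therefore upper limits for those cells.

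Between the libraries the Plin2 ratio had opposite signs in the 2 largest phagocyte classes. In microglia-like cells it was higher in cKO, at log2 0.42 (0.38 to 0.45), and in macrophage-like cells it was lower in cKO, at log2 −0.10 (−0.13 to −0.08). The border-associated macrophage-like value was 0.27 (0.13 to 0.41), that of neutrophil-like cells 0.56 (0.08 to 1.05) on 130 cKO and 51 flox UMIs, and that of endothelial-like cells −0.31 (−0.58 to −0.03). Those last 3 signs depended on how cells were assigned: with each cell gated on its own markers, they were −0.02, −0.17 and 0.09. The microglia-like value was then 0.36 and the macrophage-like value −0.10, so those signs were unchanged. In neutrophil-like cells the summed level of the 11 macrophage markers was 2519 CPM in cKO and 4506 CPM in flox; its part in the value was not tested. No Plin2 difference reached 2-fold, but with each cell given equal weight that of mural-like cells was log2 −1.23 in place of −0.40.

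The share of cells with at least 1 Plin2 UMI pointed the same way. After each cell was thinned to 1000 UMIs, 37.9% (35.4 to 40.5) of cKO and 26.9% (25.1 to 28.9) of flox microglia-like cells had one, with exact binomial intervals. For macrophage-like cells the shares were 49.0% (47.2 to 50.8) in cKO and 52.6% (51.0 to 54.2) in flox. Without thinning they were 79.4% and 63.8% of microglia-like cells and 91.1% and 89.9% of macrophage-like cells, in cKO and flox, and the sign in macrophage-like cells was then the opposite one. Shallower cells left out of the thinned shares were 40 cKO and 49 flox microglia-like cells, and 113 cKO and 104 flox macrophage-like cells. Oligodendrocyte-like cells, the class with the lowest Plin2, gave 4.50% in cKO and 3.26% in flox. The cells behind those shares had median depths of 14420 and 9114 UMIs in microglia-like, 9998.5 and 7910.5 in macrophage-like, and 6180 and 5512 in oligodendrocyte-like cells, in cKO and flox.

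Plin2 varied more within the phagocyte classes than between the libraries. Among the 3 microglia-like clusters with at least 50 cells in each library, the one led by Lpl and Cd5l had 898 CPM in cKO and 736 CPM in flox. The cycling cluster led by Cdk1 and Birc5 had 767 CPM in cKO and 637 CPM in flox. The cluster rich in P2ry12, a gene of resting microglia, had 87.2 CPM in cKO and 77.9 CPM in flox. The highest of these clusters was thus 10.3-fold above the lowest in cKO and 9.46-fold in flox. Another, small cluster led by Ifit2 and Ifit3 (14 cKO and 37 flox cells) had 399 CPM in cKO and 434 CPM in flox. The P2ry12-rich cluster made up 20.5% of the microglia-like cells of cKO and 35.8% of those of flox. With clusters weighted alike in both libraries, a setting added after the data were seen, the microglia-like ratio was log2 0.27; without the P2ry12-rich cluster it was 0.29.

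Among macrophage-like clusters the range was narrower, 3.64-fold in cKO and 4.25-fold in flox. The cluster led by Fabp4 and Gpnmb, genes of lipid-handling phagocytes, was highest with 1088 CPM in cKO and 1205 CPM in flox. The cluster led by Ccr2 and Chil3, genes of newly arrived monocytes, was lowest with 299 CPM in cKO and 283 CPM in flox. Of the 7 clusters, 5 had lower Plin2 in cKO with intervals clear of equal levels, from log2 −0.14 to −0.26, and the intervals of the 2 Ccr2-led clusters held equal levels. The Fabp4 and Gpnmb cluster held 29.8% of the macrophage-like cells of cKO and 22.0% of those of flox. Weighted alike, the macrophage-like ratio was log2 −0.17.

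**Figure D2:**
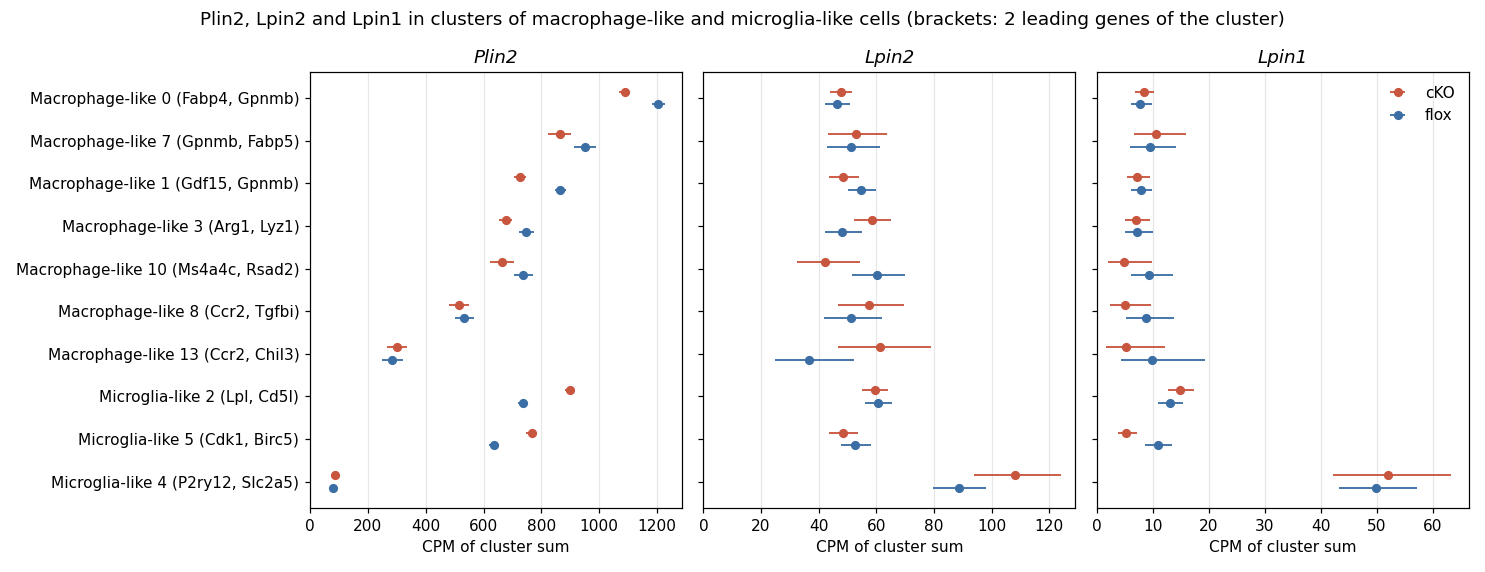
Level of Plin2, Lpin2 and Lpin1 (CPM) in the macrophage-like and microglia-like clusters with at least 50 cells in each library, each named by its leading genes. The cKO library is drawn above the flox library in each cluster, and bars are 95% Poisson intervals. Plin2 spans 299 to 1088 CPM over cKO macrophage-like clusters and 283 to 1205 CPM over flox ones, and is under 90 CPM in the P2ry12-rich microglia-like cluster of both libraries, where Lpin1 and Lpin2 are highest.

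Plin3 (ENSMUSG00000024197, chr17:56277476-56292873, minus strand), the coat protein that shuttles between cytosol and droplet, did not follow the phagocytes alone. Border-associated macrophage-like cells had 110 CPM in cKO and 100 CPM in flox, macrophage-like cells 97.8 CPM in cKO and 87.2 CPM in flox, and choroid plexus epithelial-like cells 94.0 CPM in cKO and 85.4 CPM in flox. Astrocyte-like cells had 72.4 CPM in cKO and 117 CPM in flox on 42 and 33 UMIs. Among the leading classes the intervals overlapped, so no order is given. Microglia-like cells had 65.5 CPM in cKO and 52.1 CPM in flox, and endothelial-like cells 48.5 CPM in cKO and 51.8 CPM in flox, in the middle of the range. The lowest of the 11 classes was the neuroblast-like one, with 4 UMIs in cKO and 1 in flox, clear of the next class in cKO and overlapping neutrophil-like cells in flox. The highest class was 7.90-fold above it in cKO and 22.8-fold in flox.

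In cKO, Plin3 was higher in microglia-like cells by log2 0.33 (0.22 to 0.44) and in macrophage-like cells by 0.16 (0.09 to 0.24). The macrophage-like sign turned to −0.06 when each ratio was taken relative to the gene's median over the other classes. In oligodendrocyte-like cells Plin3 was lower in cKO by log2 −0.42 (−0.80 to −0.04). That difference lay in 1 small cluster, with 75.3 CPM (22 UMIs) in cKO and 227 CPM (54 UMIs) in flox; the main oligodendrocyte-like cluster had 43.2 CPM in cKO and 42.8 CPM in flox.

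The split of the coat UMIs between the 2 genes differed by class. Plin2 made up 89.6% of the Plin2 and Plin3 UMIs of macrophage-like cells in cKO and 91.2% in flox, and 92.2% of those of microglia-like cells in cKO and 91.7% in flox. In oligodendrocyte-like cells it made up 44.9% in cKO and 39.6% in flox, and in choroid plexus epithelial-like cells 30.8% in cKO and 38.8% in flox. These shares compare classes; whether both transcripts are captured equally well was not tested. A high Plin2 share was not limited to phagocytes, as it was 81.8% in cKO and 80.5% in flox fibroblast-like cells. There free myeloid RNA could supply up to 24.7% of Plin2 in cKO and 26.2% in flox. Neuroblast-like cells gave 90.9% in cKO and 95.7% in flox, on 44 and 23 UMIs of both genes. Free myeloid RNA could supply up to 47.6% of their Plin2 in cKO and 48.5% in flox. For their Plin3 it was 55.1% in cKO and 103% in flox, and its part in the shares was not tested.

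**Figure D3:**
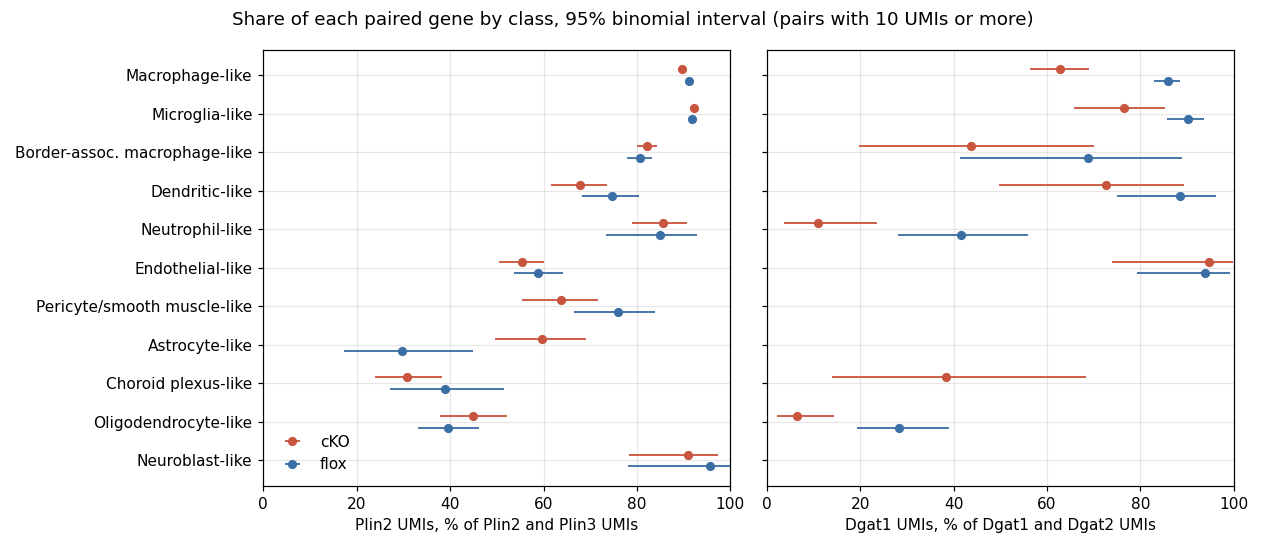
Share of Plin2 among Plin2 and Plin3 UMIs and of Dgat1 among Dgat1 and Dgat2 UMIs (percent) by class, where at least 10 UMIs were counted. In each class cKO is drawn above flox, with exact 95% binomial intervals. The Dgat1 share of macrophage-like cells is 62.8% in cKO and 85.9% in flox, while that of Plin2 is 89.6% in cKO and 91.2% in flox.

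Acsl1 (ENSMUSG00000018796, chr8:46471037-46536051, plus strand), which activates long-chain fatty acids, was led by neutrophil-like cells. They had 215 CPM (173 to 264, 91 UMIs) in cKO and 189 CPM (138 to 252, 46 UMIs) in flox. Oligodendrocyte-like cells followed with 113 CPM in cKO and 102 CPM in flox, clear of the next class in both libraries. Macrophage-like cells had 43.0 CPM in cKO and 40.3 CPM in flox, microglia-like cells 35.3 CPM in cKO and 36.7 CPM in flox, and astrocyte-like cells were lowest with 10.3 CPM in cKO and 3.54 CPM in flox. No more than 5 UMIs were found in any neutrophil-like cell of cKO and 3 in any of flox and the median cell had none. The 10% of neutrophil-like cells with the most Acsl1 held 58.2% of its UMIs in cKO and 69.6% in flox. Since most of these cells had 0 Acsl1 UMIs, such a share does not show a subset rich in Acsl1. The interval of the Acsl1 ratio held equal levels in all 8 classes compared.

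Acsl4 (ENSMUSG00000031278, chrX:142317993-142390535, minus strand), which prefers arachidonate and other polyunsaturated fatty acids, had no leading class. Macrophage-like cells had 49.9 CPM in cKO and 49.4 CPM in flox, and microglia-like cells 49.6 CPM in cKO and 60.8 CPM in flox. Oligodendrocyte-like cells had 36.4 CPM in cKO and 38.6 CPM in flox, so that the spread over these classes was small beside that of Acsl1. The ratio was log2 −0.29 (−0.41 to −0.18) in microglia-like cells and 0.43 (0.01 to 0.85) in border-associated macrophage-like cells, with 61.3 CPM in cKO and 45.6 CPM in flox. In mural-like cells the ratio was −1.04 (−1.84 to −0.25), with 33.4 CPM (25 UMIs) in cKO and 68.4 CPM (34 UMIs) in flox. That call was lost under 5 of the other settings, with values from −0.63 to −0.999.

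Gpam (ENSMUSG00000024978, chr19:55067268-55127238, minus strand), which adds the first acyl chain at the mitochondrion, was sharply led by astrocyte-like cells. They had 215 CPM (179 to 257) in cKO and 244 CPM (190 to 309) in flox. Oligodendrocyte-like cells had 30.7 CPM in cKO and 24.6 CPM in flox, and macrophage-like cells 4.29 CPM in cKO and 5.74 CPM in flox. Neutrophil-like cells had 0 UMIs in both libraries, which allows up to 7.09 CPM in cKO and 12.3 CPM in flox. Spearman's rho between the libraries, 0.98 over the 11 classes, was the highest of the 10 genes. In cKO, Gpam was lower by log2 −0.43 (−0.73 to −0.14) in microglia-like cells, with 7.74 CPM in cKO and 10.4 CPM in flox. In macrophage-like cells it was lower by −0.42 (−0.75 to −0.09).

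Agpat3 (ENSMUSG00000001211, chr10:78269178-78352489, minus strand), which acylates lysophosphatidate, was likewise highest in astrocyte-like cells. Astrocyte-like cells had 210 CPM (175 to 251) in cKO and 173 CPM (128 to 229) in flox, and oligodendrocyte-like cells 123 CPM in cKO and 145 CPM in flox, an interval clear of astrocyte-like cells in cKO and overlapping them in flox. Neutrophil-like cells, with 11.8 CPM in cKO and 16.4 CPM in flox, and dendritic-like cells, with 8.41 CPM in cKO and 19.1 CPM in flox, were lowest. It also set the phagocyte classes apart. Microglia-like cells had 85.8 CPM in cKO and 90.8 CPM in flox and border-associated macrophage-like cells 95.6 CPM in cKO and 106 CPM in flox, against 24.4 CPM in cKO and 26.8 CPM in flox for macrophage-like cells, with intervals far apart. Macrophage-like and microglia-like cells thus differed more in Agpat3 than the libraries did, whose ratio was log2 −0.08 (−0.17 to 0.01) in microglia-like and −0.14 (−0.28 to 0.01) in macrophage-like cells. In endothelial-like cells the ratio was −0.38 (−0.67 to −0.10), with 53.9 CPM in cKO and 70.4 CPM in flox. Within the 2 clusters of that class it was −0.21 (−0.56 to 0.14) and −0.40 (−1.04 to 0.20), both holding equal levels, and the cluster with more Agpat3 held 18.2% of the endothelial-like cells of cKO and 42.0% of those of flox.

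The 2 lipin genes were highest in different cell types. Lpin1 (ENSMUSG00000020593, chr12:16535669-16610966, minus strand) was highest in oligodendrocyte-like cells, 87.6 CPM in cKO and 97.6 CPM in flox, and in neuroblast-like cells, 62.4 CPM in cKO and 123 CPM in flox, with overlapping intervals. Neutrophil-like cells had 0 Lpin1 UMIs in cKO and 1 in flox. Lpin2 (ENSMUSG00000024052, chr17:71182560-71249817, plus strand) was highest in microglia-like cells, 60.3 CPM in cKO and 63.1 CPM in flox, an interval that overlapped border-associated macrophage-like cells (57.9 CPM) in cKO and was clear of the next class in flox, and lowest in oligodendrocyte-like cells, 6.13 CPM in cKO and 9.29 CPM in flox. Lpin1 made up 93.5% of the lipin UMIs of oligodendrocyte-like cells in cKO and 91.3% in flox, but 12.98% of those of macrophage-like cells in cKO and 13.73% in flox. Several classes used both about equally: the share was 44.2% in cKO and 55.8% in flox border-associated macrophage-like cells, and 61.5% in cKO and 52.3% in flox endothelial-like cells. Both genes encode enzymes that turn phosphatidate into diacylglycerol.

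Of the same 3 microglia-like clusters, the P2ry12-rich one, lowest in Plin2, was highest in both lipins. Lpin1 had 52.0 CPM there in cKO and 49.8 CPM in flox, against 14.9 CPM in cKO and 12.97 CPM in flox in the Lpl and Cd5l cluster. Lpin2 had 108 CPM in the P2ry12-rich cluster in cKO and 88.5 CPM in flox. In the cycling cluster Lpin1 had 5.23 CPM in cKO and 10.9 CPM in flox, lower in cKO by log2 −1.06 (−1.64 to −0.49). The class ratio of Lpin1 was log2 −0.35 (−0.57 to −0.14), and −0.04 with clusters weighted alike.

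The lipin difference called between the libraries was that of Lpin2 in endothelial-like cells. It had 8.99 CPM (35 UMIs) in cKO and 21.8 CPM (61 UMIs) in flox, lower in cKO by log2 −1.28 (−1.92 to −0.66). The main endothelial-like cluster had 8.14 CPM in cKO and 17.7 CPM in flox, a ratio of −1.12 (−1.90 to −0.36). The smaller one had 15.4 CPM (7 UMIs) in cKO and 30.7 CPM (27 UMIs) in flox. Its ratio of −0.99 (−2.44 to 0.24) held equal levels. Of the genes with like GC content at their 3′ end, 1.32% had as low a ratio. Free myeloid RNA could supply up to 21.2% of the endothelial-like level in cKO and 9.17% in flox. Lpin1 was lower in the same class by −0.74 (−1.27 to −0.20), with 14.4 CPM in cKO and 23.9 CPM in flox. That value moved with the makeup of the class: the smaller cluster, where Lpin1 was higher, held 18.2% of the endothelial-like cells of cKO and 42.0% of those of flox. Within the main cluster the Lpin1 ratio was −0.21 (−0.91 to 0.52) and within the smaller one −0.84 (−1.95 to 0.16), both holding equal levels. With clusters weighted alike the class ratio was −0.44, a value for which no interval of its own was computed.

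Dgat1 (ENSMUSG00000022555, chr15:76502015-76511953, minus strand), which adds the last acyl chain in the endoplasmic reticulum, was the member that differed most between the libraries. Macrophage-like cells had 4.70 CPM (150 UMIs) in cKO and 17.6 CPM (542 UMIs) in flox, lower in cKO by log2 −1.90 (−2.18 to −1.64). Microglia-like cells had 2.96 CPM (62 UMIs) in cKO and 9.69 CPM (219 UMIs) in flox, a ratio of −1.71 (−2.14 to −1.30). Dendritic-like cells had 12.2 CPM (16 UMIs) in cKO and 30.3 CPM (38 UMIs) in flox, a ratio of −1.31 (−2.25 to −0.43). Dgat1 was lower in cKO in all 7 macrophage-like clusters, by −1.20 to −2.81. In the other 5 compared classes it had under 50 UMIs, and the value was lower in cKO in each. The interval lay below equal levels in neutrophil-like (−2.93), oligodendrocyte-like (−2.41) and endothelial-like cells (−1.21). It held equal levels in border-associated macrophage-like cells, at −0.89 (−2.50 to 0.61) on 7 cKO and 11 flox UMIs. It also did so in mural-like cells, at −1.18 (−3.45 to 0.90) on 4 cKO and 6 flox UMIs. Neutrophil-like cells had 11.8 CPM (5 UMIs) in cKO and 90.2 CPM (22 UMIs) in flox. Of all genes with at least 50 UMIs, 10.7% to 23.8% had intervals below equal levels in these 5 classes.

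The genes richest in GC near their 3′ end had a lower median ratio than the rest, and Dgat1 is one of them, with 56.6% GC in the last 500 nt of its transcript. In macrophage-like cells the genes of the highest of 10 GC bins, those with at least 54.4% GC, had a median ratio of log2 −0.40, and 31.3% of them were 2-fold lower in cKO. In microglia-like cells these values were −0.47 and 33.3%. Less the median of those genes, Dgat1 stood at −1.50 in macrophage-like, −1.24 in microglia-like and −0.99 in dendritic-like cells, where the call was lost. Of the genes in that bin, 11.9% had as low a ratio in macrophage-like cells, 16.5% in microglia-like and 15.7% in dendritic-like cells. Dgat2 lies in the same bin with 56.4% GC, and its ratio in macrophage-like cells was −0.05 (−0.49 to 0.39) on 89 UMIs in each library.

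Dgat2 (ENSMUSG00000030747, chr7:99153658-99182719, minus strand), which carries out the same last step and is unrelated in sequence to Dgat1, was found mainly in neutrophil-like, oligodendrocyte-like and ependymal-like cells. Neutrophil-like cells had 97.0 CPM (69.6 to 132, 41 UMIs) in cKO and 127 CPM (86.4 to 180, 31 UMIs) in flox. Oligodendrocyte-like cells had 32.0 CPM in cKO and 29.3 CPM in flox, and the few ependymal-like cells (30 in cKO and 40 in flox) had 159 CPM in cKO and 239 CPM in flox. The 2 large phagocyte classes had little of it. Macrophage-like cells had 2.79 CPM in cKO and 2.89 CPM in flox, and microglia-like cells 0.907 CPM in cKO and 1.06 CPM in flox. Within macrophage-like cells the Ccr2 and Chil3 cluster stood out with 19.7 CPM in cKO and 31.7 CPM in flox. In mural-like cells Dgat2 had 0 UMIs in both libraries, which allows up to 4.01 CPM in cKO and 6.04 CPM in flox.

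The last step was thus split by class. Dgat1 made up 62.8% of the Dgat UMIs of macrophage-like cells in cKO and 85.9% in flox, and 76.5% of those of microglia-like cells in cKO and 90.1% in flox. In oligodendrocyte-like cells it made up 6.41% in cKO and 28.4% in flox, and in neutrophil-like cells 10.9% in cKO and 41.5% in flox. The lower shares in cKO went with the lower Dgat1 level, as Dgat2 had ratios of −0.39 (−1.10 to 0.33) in neutrophil-like and 0.13 (−0.38 to 0.64) in oligodendrocyte-like cells.

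Over the 8 classes, 56 pairs of a member and a class had enough UMIs, of which 5 were called lower in cKO and 0 higher; from 0.358% to 1.82% of all genes of a class were called higher (macrophage-like 0.636%, microglia-like 0.619%, dendritic-like 0.358%, endothelial-like 0.737%, mural-like 1.67%, oligodendrocyte-like 0.651%, neutrophil-like 1.82%, border-associated macrophage-like 0.965%). Without the minimum of UMIs 10 were called lower, and with at least 200 UMIs 2. The share of all genes called at these 2 limits was not counted, so these counts have nothing to be set against. In macrophage-like cells 1 of 10 members was called lower (Dgat1), where 5.2% of all genes compared were. In microglia-like cells 1 of 9 was (Dgat1), against 5.55% of all genes, and in dendritic-like cells 1 of 6 (Dgat1), against 3.91%. In endothelial-like cells it was 1 of 8 (Lpin2), against 5.99%, and in mural-like cells 1 of 5 (Acsl4), against 3.38%. None was called in oligodendrocyte-like cells (8 members, 4.19% of all genes lower), neutrophil-like cells (3 members, 3.03%) or border-associated macrophage-like cells (7 members, 4.05%). The median member ratio was log2 −0.07 in macrophage-like cells, beside 0.01 for all genes, and −0.08 in microglia-like cells, beside −0.03. In endothelial-like cells it was −0.32, beside −0.09, where 4 of 8 members and 23.8% of all genes had intervals below equal levels.

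**Figure D4:**
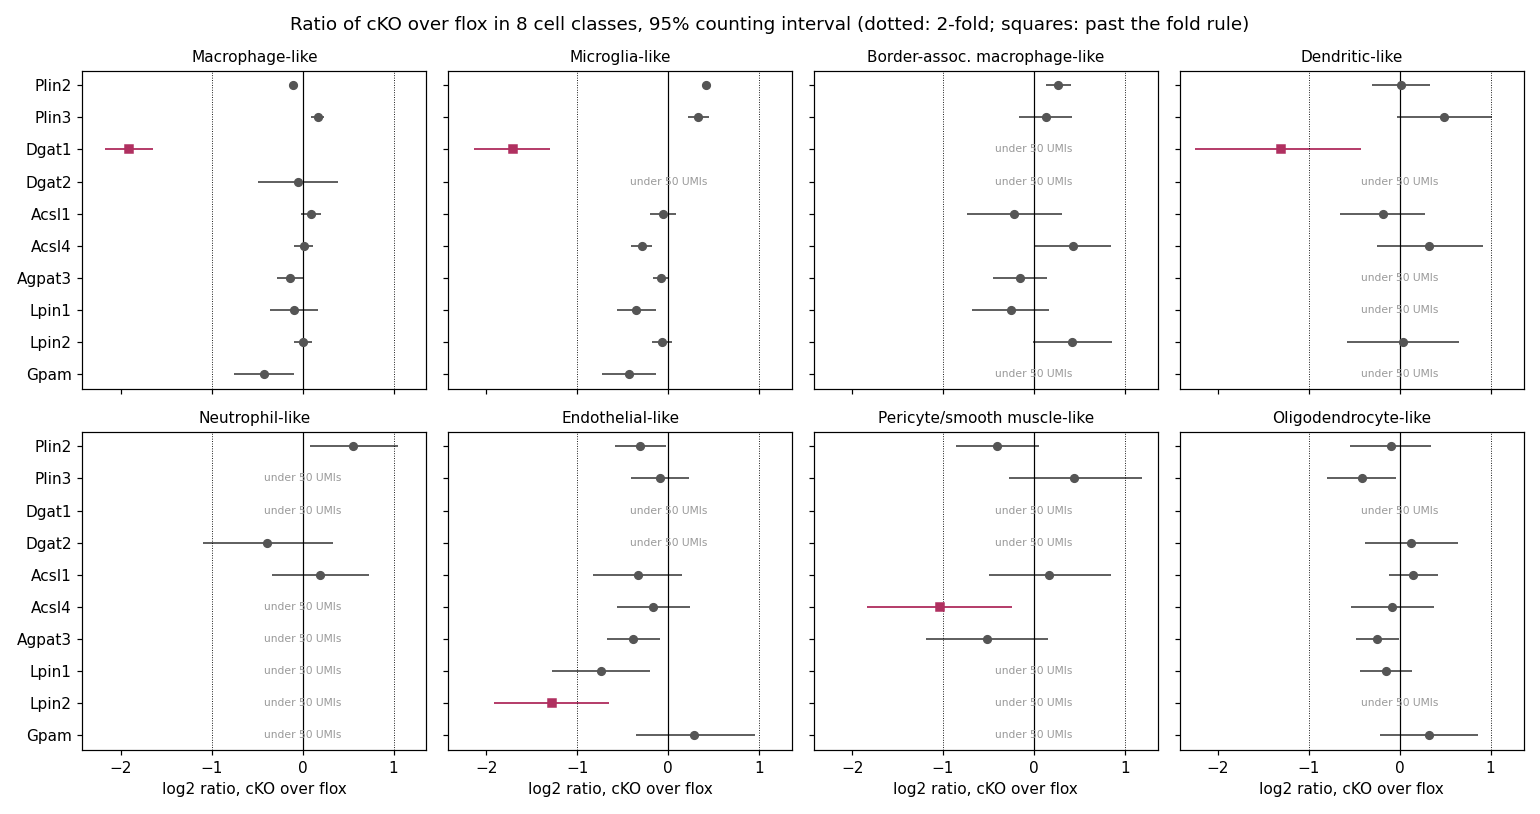
Log2 ratio of CPM, cKO over flox, for each member in the 8 classes compared, with exact conditional 95% intervals; dotted lines mark 2-fold, squares mark called differences and pairs under 50 UMIs are named as such. Dgat1 is left of the lower dotted line in macrophage-like (−1.90), microglia-like (−1.71) and dendritic-like cells (−1.31), with Lpin2 in endothelial-like (−1.28) and Acsl4 in mural-like cells (−1.04).

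Of 37 symbols listed for further genes of droplet coats and of triglyceride synthesis and breakdown, 34 matched the features. Ldaf1, Agpat6 and Agpat9 were not matched as symbols, which does not show that those genes were absent. Of the matched genes, 0 to 1 per class were called higher in cKO against 1 to 4 called lower. Over all genes, too, more were called lower than higher in each class. In macrophage-like cells 4 of 19 with enough UMIs were called lower, in microglia-like cells 4 of 21 and in endothelial-like cells 4 of 18, in each case Pnpla2, Bscl2, Agpat4 and Lipe. Of all genes, 5.2%, 5.55% and 5.99% were called lower in these classes, in the same order. In oligodendrocyte-like cells 3 of 18 were called lower (Pnpla2, Bscl2 and Agpat4), beside 4.19% of all genes. In border-associated macrophage-like cells it was 2 of 13 (Pnpla2 and Bscl2), beside 4.05%, and in mural-like cells 2 of 11 (Pnpla2 and Mgll), beside 3.38%. In neutrophil-like cells it was 2 of 6 (Pnpla2 and Hilpda), beside 3.03%, and in dendritic-like cells 1 of 13 (Pnpla2), beside 3.91%. Pnpla2, the triglyceride lipase, was called lower in all 8 classes, with 20.9 CPM in cKO and 60.4 CPM in flox macrophage-like cells (log2 −1.53, −1.66 to −1.40). Bscl2, which encodes seipin, the protein at the site where droplets form, had 28.8 CPM in cKO and 70.4 CPM in flox macrophage-like cells (−1.29, −1.40 to −1.18). Agpat4, an acyltransferase like Agpat3, had 160 CPM in cKO and 396 CPM in flox oligodendrocyte-like cells (−1.30, −1.48 to −1.13). Bscl2 and Lipe lie in the same highest GC bin as Dgat1, with 56.8% and 61.8% GC at their 3′ ends, and the part of GC content in their values was not tested. Pnpla2 (51.8%) and Agpat4 (53.6%) lie in the bin below it, whose median ratio was 0.01 in macrophage-like and −0.02 in oligodendrocyte-like cells. In that bin 9.16% of genes were called lower in cKO in macrophage-like cells and 8.55% in oligodendrocyte-like cells. The part of GC content in the values of Pnpla2 and Agpat4 was not tested either. The genes called higher were Hilpda in microglia-like cells (log2 1.11) and in border-associated macrophage-like cells (1.13).

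Across the 11 classes and both libraries, 22 points that share libraries and depth, the genes most like Plin2 by Pearson's r of log2(CPM + 1) were Grn (0.94), Cd68, Renbp, C3ar1 and Adam8 (each 0.93), among 5435 genes with at least 100 CPM in 1 point. Of the other members Lpin2 came closest, with r 0.84 and rank 77, while Plin3, the other coat gene, had r 0.15. Dgat2 was most like Atg3 (0.89), Il1rap (0.84) and Fbxl5 (0.80). Among pairs of members, that of Plin2 and Lpin2 was followed by Agpat3 and Gpam, with r 0.81. The r of Lpin1 and Gpam was 0.73, and that of Acsl1 and Gpam −0.77.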

How the data were processed

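The authors deposited raw UMI counts per gene and barcode, 1 matrix for each library, with 70665440 UMIs in 7382 barcodes of cKO and 67864602 UMIs in 8593 barcodes of flox. The submitters' processing notes name CASAVA 1.8, STARsolo, Seurat and mm10. No annotation or cell caller was stated in the labels. Barcodes under 500 UMIs or 200 genes, or over 25% mitochondrial UMIs, were dropped, and Scrublet doublets (142 in cKO, 210 in flox) were left out. Kept cells were scaled to 10000 UMIs, log-transformed and clustered together without integration (scanpy 1.11.5, leidenalg 0.10.2, 2000 variable genes without the members and pathway genes, 30 components, 20 neighbours, resolution 1), giving 28 clusters. Clusters were called "-like" from 21 marker lists when at least 3 markers were in at least 10% of cells and at least 2-fold higher than elsewhere; these thresholds were set after the clusters were seen.

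Raw counts were summed per class and library. Levels have exact Poisson intervals, ratios exact conditional ones and shares exact Clopper-Pearson ones (scipy 1.17.1), checked on simulated counts; no test was made. A level of 0 was given the limit of 3 counts. All 10 members are named throughout, other genes of the pathway where they passed the 2-fold rule, and the genes most like Plin2 and Dgat2 by rank of correlation. The members and gene lists were chosen with earlier results of these data known. Gene coordinates and the last 500 nt of transcripts came from GENCODE on GRCm38, promoters from RefSeq.

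Alternatives were a mitochondrial limit of 10%, kept doublets, resolution 2, a per-cell marker gate, equal weight per cell, TMM scaling (edgeR 4.0.16), ratios less the median ratio at like GC content, ratios relative to the other classes, other UMI and fold limits and other thinning. Equal cluster weights and leaving out the P2ry12-rich cluster were chosen after seeing the data. Where cells or clusters were weighted, or a median or scaling factor applied, the main interval was moved to the new value, unchanged in width.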

Additional observations from a re-analysis of the deposited data

Results flagged for a closer look

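Members whose interval of the ratio, cKO over flox, lay above equal levels in 1 class and below it in another are given here. The differences between classes were not tested.

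Plin2 was at log2 0.42 in microglia-like, 0.27 in border-associated macrophage-like and 0.56 in neutrophil-like cells, against −0.10 in macrophage-like and −0.31 in endothelial-like cells. The per-cell marker gate turned the border-associated macrophage-like, neutrophil-like and endothelial-like signs.

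Plin3 was at 0.33 in microglia-like and 0.16 in macrophage-like cells, against −0.42 in oligodendrocyte-like cells, the last resting on 1 small cluster.

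Acsl4 was at 0.43 in border-associated macrophage-like cells, against −0.29 in microglia-like and −1.04 in mural-like cells, the last on 25 cKO and 34 flox UMIs.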

How the results depend on the processing

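No called difference changed sign under any setting run. The Plin2 ratio of microglia-like cells, log2 0.42, was 0.36 with the per-cell gate, 0.55 with equal weight per cell, 0.46 with TMM scaling and 0.52 relative to the other classes; with the cluster settings chosen after seeing the data it was 0.27 with clusters weighted alike and 0.29 without the P2ry12-rich cluster. That of macrophage-like cells, −0.10, was −0.17 with genes of like GC content subtracted and −0.17 with clusters weighted alike. The count of members called lower in cKO, 5, was 1 relative to the other classes, where Dgat1 had too few classes to be set against, 2 with at least 200 UMIs and 10 with no minimum. It was 7 with equal weight per cell, which added Plin2 in mural-like and Plin3 in oligodendrocyte-like cells. The added calls rest on the interval of the summed counts moved to the new value, not on an interval of the mean over cells. The share of all genes called was not counted under these settings. Thinned to 2000 UMIs, the share of cells with Plin2 was 70.5% in cKO and 73.5% in flox macrophage-like cells and 53.8% in cKO and 41.6% in flox microglia-like cells; not thinned, it was 91.1% and 89.9%, and 79.4% and 63.8%.

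Sign changes among ratios that were not called included Plin3 in macrophage-like cells (−0.06) and Agpat3 in microglia-like (0.16) and macrophage-like cells (0.11), all relative to the other classes, and Plin2 in oligodendrocyte-like cells, which was 0.63 with doublets kept, 0.43 with the per-cell gate and 0.48 with equal weight per cell, in place of −0.10. Of 56 member ratios, 10 moved beyond their interval with equal weight per cell, 8 with the per-cell gate and 1 with TMM scaling. The cause was not tested. TMM moved the median of all genes by over 0.1 in endothelial-like cells alone, by 0.14. With a mitochondrial limit of 10% the mural-like class was not formed.

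No paired analysis was possible because each genotype had 1 library. Depth limits Dgat1 and Dgat2 most: outside macrophage-like, microglia-like and dendritic-like cells Dgat1 had under 50 UMIs over both libraries.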

Other observations

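Classes under 50 cells in a library gave values outside the comparisons. In ependymal-like cells, 30 in cKO and 40 in flox, Plin2 had 234 CPM in cKO and 158 CPM in flox, of which free myeloid RNA may supply up to 42.9% in cKO and 112% in flox. Lpin1 had 104 CPM there in cKO and 133 CPM in flox, a level beside that of oligodendrocyte-like cells. In cells like T or NK cells, 43 in cKO and 64 in flox, Lpin1 had 63.3 CPM (27.3 to 125) in cKO and 198 CPM (127 to 294) in flox, on 8 and 24 UMIs, and Dgat1 39.5 CPM (12.8 to 92.3) in cKO and 107 CPM (57.0 to 183) in flox, on 5 and 13 UMIs. Fibroblast-like cells had 251 CPM of Plin2 in cKO and 273 CPM in flox.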
